A study of Homo sapiens with 16 samples.

Results

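The 6 genes described here, CXCL1, CXCL2, CXCL3, CXCL5, CXCL6 and CXCL8 (CXCL8 is also written IL8), are the ELR-type CXC chemokines of the series and were chosen by name. All 6 passed the filter on low counts in both serum conditions, where they are 6 of 16069 (low serum) and 6 of 15414 (standard serum) protein-coding genes tested. The samples were sublines of MDA-MB-231 or of MDA-MB-436, both human triple-negative breast cancer lines of mesenchymal character. They carried the 7TGP reporter, in which Tcf/Lef binding sites drive eGFP, and were sorted repeatedly by eGFP into 7TGP-POS and 7TGP-NEG sublines. Every group therefore carried the reporter, and POS and NEG differ in the sort rather than in a treatment. The libraries came from cells in low serum (0.5% FBS, day 3) or in standard serum (10% FBS, day 6), with 2 biological replicates of each of the 4 sublines, which gives 8 groups and 16 libraries. The sublines of a line were kept as sorted populations, so the 2 replicates of a group are cultures of 1 subline. The low serum RNA was depleted of ribosomal RNA and the standard serum RNA was selected for poly(A) according to the study's methods, although the labels name the same kit for all libraries, so serum, time in culture, kit and sequencing run cannot be told apart, and no test was made between serum conditions. The methods also give different culture media for the 2 lines, so a difference between lines cannot be told apart from one between media.

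Libraries held 27918418 to 32667756 counts in low serum and 31827130 to 46044073 counts in standard serum. CDKN2A, which MDA-MB-231 is known to lack, lay between 0 and 0.14 TPM (transcript counts scaled for gene length and library sum) in the 8 MDA-MB-231 libraries and between 57.0 and 83.6 TPM in the 8 MDA-MB-436 libraries. The epithelial cadherin gene CDH1 stayed at or below 0.15 TPM in all 16 libraries. Levels below are the authors' TPM, which are scaled for gene length, while fold changes come from counts. In low serum, genes that are not protein-coding took 30.4% to 59.0% of the TPM of a library, against 4.32% to 5.69% in standard serum. For this reason the TPM of a typical coding gene was shifted between low serum groups, with a median log2 TPM ratio of POS to NEG of -0.21 in MDA-MB-231 and -0.25 in MDA-MB-436, where the counts after normalization were centred near 0.

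ELR-type CXC chemokines are small secreted proteins with a Glu-Leu-Arg motif ahead of their first cysteine pair. They act on the receptors CXCR1 and CXCR2, attract neutrophils and promote angiogenesis. Their genes are short, inducible, and known to respond to interleukin 1 and TNF through NF-κB, and in breast cancer cells CXCL8 and CXCL1 are known as abundant secreted products of mesenchymal, basal-type lines. CXCL8 is the main human neutrophil attractant, CXCL1, CXCL2 and CXCL3 form a group of close paralogs (GROα, GROβ and GROγ), CXCL5 (ENA-78) and CXCL6 (GCP-2) form another close pair.

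All 6 genes lie in 1 cluster on chromosome 4, within 358.7 kb of GRCh37. CXCL8 (ENSG00000169429) was at chr4:74606236-74609433, CXCL6 (ENSG00000124875) at chr4:74702357-74714781 and CXCL1 (ENSG00000163739) at chr4:74735110-74737025, all on the plus strand. CXCL5 (ENSG00000163735) was at chr4:74861359-74864394, CXCL3 (ENSG00000163734) at chr4:74902306-74904524 and CXCL2 (ENSG00000081041) at chr4:74962757-74964913, all on the minus strand. No stretch of 100 bases in the longest coding transcript of any of the 6 genes occurred unchanged in a transcript of another gene. Over their whole length, the transcripts of CXCL1 and CXCL2 were 83.7% identical, those of CXCL2 and CXCL3 73.0% and those of CXCL1 and CXCL3 69.2%. How many shorter matches were assigned to the wrong paralog by the authors' counting was not tested, and the values of CXCL1, CXCL2 and CXCL3 are uncertain to that extent.

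The promoters are shown because the same 9 bases stand ahead of every one of the 6 genes. The stretches below are RefSeq sequences of GRCh38.p14 that end 1 base before the annotated transcription start, in lower case, with matches to the searched motifs in capitals. The motifs were those of NF-κB (GGANNTTCC), AP-1 (TGANTCA), TCF/LEF (ATCAAAG) and C/EBP (TTGCNNAA), searched on both strands over 250 bases before the start.
CXCL1, chr4:73869273-73869392, plus strand: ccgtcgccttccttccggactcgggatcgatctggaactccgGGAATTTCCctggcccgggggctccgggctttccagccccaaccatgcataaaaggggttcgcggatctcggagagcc
CXCL2, chr4:74099196-74099315, minus strand: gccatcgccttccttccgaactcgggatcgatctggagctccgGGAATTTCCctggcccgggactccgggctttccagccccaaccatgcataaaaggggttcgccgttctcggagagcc
CXCL3, chr4:74038690-74038809, minus strand: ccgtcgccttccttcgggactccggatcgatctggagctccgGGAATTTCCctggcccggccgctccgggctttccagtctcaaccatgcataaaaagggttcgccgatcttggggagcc
CXCL5, chr4:73998678-73998797, minus strand: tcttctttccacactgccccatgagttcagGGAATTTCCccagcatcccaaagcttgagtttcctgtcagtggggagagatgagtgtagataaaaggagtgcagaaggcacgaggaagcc
CXCL6, chr4:73836558-73836677, plus strand: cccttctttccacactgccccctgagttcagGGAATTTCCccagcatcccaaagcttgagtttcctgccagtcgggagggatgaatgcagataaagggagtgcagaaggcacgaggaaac
CXCL8, chr4:73740369-73740568, plus strand: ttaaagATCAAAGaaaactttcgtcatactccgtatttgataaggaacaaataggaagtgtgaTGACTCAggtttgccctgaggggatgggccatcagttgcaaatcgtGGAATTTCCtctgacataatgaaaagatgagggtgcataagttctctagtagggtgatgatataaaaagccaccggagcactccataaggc

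The match GGAATTTCC began between 77 and 91 bases before the start in all 6 genes, at positions -78 in CXCL1, -77 in CXCL2, -78 in CXCL3, -90 in CXCL5, -89 in CXCL6 and -91 in CXCL8. Of 35116 RefSeq promoters of the same length, 3.84% held a match to the NF-κB motif. Exact matches to the other motifs were not shared. CXCL8 alone among the 6 matched the AP-1 motif (at -137, found in 6.57% of all promoters) and the TCF/LEF motif (at -194, found in 2.26%). CXCL2 alone matched the C/EBP pattern as searched (at -188, found in 9.05%). None of these matches overlapped another. The CXCL8 stretch holds ttgcaaat, which departs from the C/EBP pattern in its last base, so a missing match does not show that a site is missing. Over the 250 bases, the promoters of CXCL5 and CXCL6 were 85.3% identical, those of CXCL1 and CXCL3 81.4%, those of CXCL2 and CXCL3 73.4% and those of CXCL1 and CXCL2 70.1%, whereas CXCL8 was 43.9% to 47.9% identical to the others. These are matches of letters in the reference and say nothing of binding in these cells.

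The first question was which of these chemokine transcripts were present in which subline, and at what level. CXCL8 and CXCL1 led in MDA-MB-231, CXCL1, CXCL2 and CXCL8 shared the lead in MDA-MB-436, CXCL3 was lower than these in every group, and CXCL5 and CXCL6 were seen above a few counts mainly in MDA-MB-436. The sum of the 6 transcripts in MDA-MB-231 was 114.9 ± 2.72 TPM in NEG and 1057 ± 14.6 TPM in POS in low serum, and 269 ± 3.47 and 1651 ± 29.8 TPM in standard serum (mean ± SD, n = 2). In MDA-MB-436 it was 409 ± 24.5 TPM in NEG and 709 ± 47.0 TPM in POS in low serum, and 412 ± 7.13 and 1424 ± 47.0 TPM in standard serum. The NEG sublines thus had different sums, higher in MDA-MB-436, while the POS sublines of both lines had the larger sum in each serum condition. The series holds no unsorted parent, so NEG is not a starting level, here or in the values below. In bulk RNA, more cells that express a gene and more RNA of it per cell cannot be told apart, here or in the values below.

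**Figure D1:**
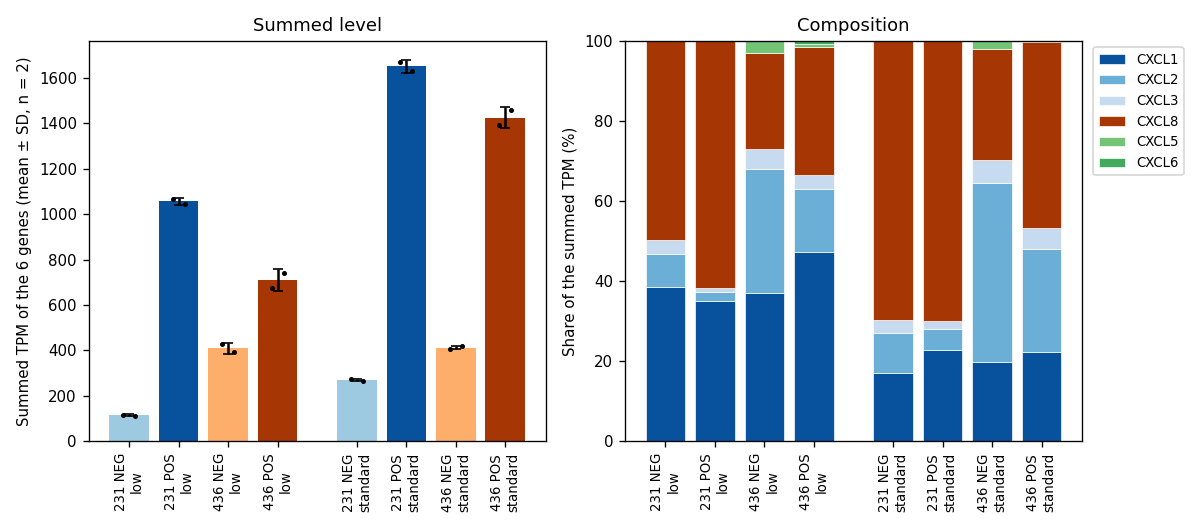
Summed TPM of the 6 chemokine genes in each group (left, bars show the mean, error bars the SD and dots the 2 libraries) and the share of each gene in that sum (right, mean share in percent). Below the bars stand the line, the subline and the serum condition; the sum is higher in POS than in NEG in all 4 pairs, and CXCL2 takes a larger share in MDA-MB-436 than in MDA-MB-231.

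The composition of the sum differed between lines and between NEG and POS. CXCL8 took 49.9% ± 0.14 of it in MDA-MB-231 NEG and 61.7% ± 1.47 in MDA-MB-231 POS in low serum, and in standard serum 69.7% ± 0.49 and 70.0% ± 1.73. In MDA-MB-436 it took 23.9% ± 0.15 in NEG and 31.9% ± 1.29 in POS in low serum, and in standard serum 27.8% ± 0.81 and 46.3% ± 2.52. In MDA-MB-436, then, the share of CXCL8 was larger in both POS libraries than in both NEG libraries of each serum condition. The share of CXCL2 was smaller in POS in every pair, from 8.03% ± 0.35 in NEG to 2.30% ± 0.06 in POS in MDA-MB-231 in low serum, from 9.98% ± 0.36 to 5.26% ± 0.41 in standard serum, from 30.9% ± 0.65 to 15.9% ± 0.12 in MDA-MB-436 in low serum and from 44.9% ± 0.52 to 25.6% ± 1.37 in standard serum. CXCL2 was the largest single component of MDA-MB-436 NEG in standard serum, and CXCL1 that of both MDA-MB-436 sublines in low serum, with 36.9% ± 0.29 in NEG and 47.2% ± 1.29 in POS. Shares of summed counts, which are not corrected for length, put CXCL8 first there instead, at 32.3% against 28.5% for CXCL1 in NEG and at 43.0% against 36.2% in POS. The shares are descriptions, without a test.

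The second question was how each transcript differed between POS and NEG cells of the same line. A gene was called where edgeR's quasi-likelihood test gave a Benjamini-Hochberg adjusted p under 0.05 and the log2 fold change was at least 1 in size. In MDA-MB-231, 5 of the 6 genes were called higher in POS in low serum, where 3.5% of all genes tested were called higher, and 5 of the 6 in standard serum, where 4.96% were. These were the same 5 genes, CXCL1, CXCL2, CXCL3, CXCL5 and CXCL8, and the sixth, CXCL6, was at the floor of 3 counts or fewer per library in both sublines. In MDA-MB-436, 3 of 6 (CXCL1, CXCL6 and CXCL8) were called higher in POS in low serum, against 6.52% of all genes, and 1 (CXCL5) was called lower, against 4.03%. In standard serum, 4 of 6 (CXCL1, CXCL3, CXCL6 and CXCL8) were called higher, against 6.47% of all genes, and again CXCL5 was called lower, against 6.06%. The serum conditions are different cultures, so each count stands on its own libraries. The 6 genes are neighbours and paralogs, so that they are not independent items in these counts.

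**Figure D2:**
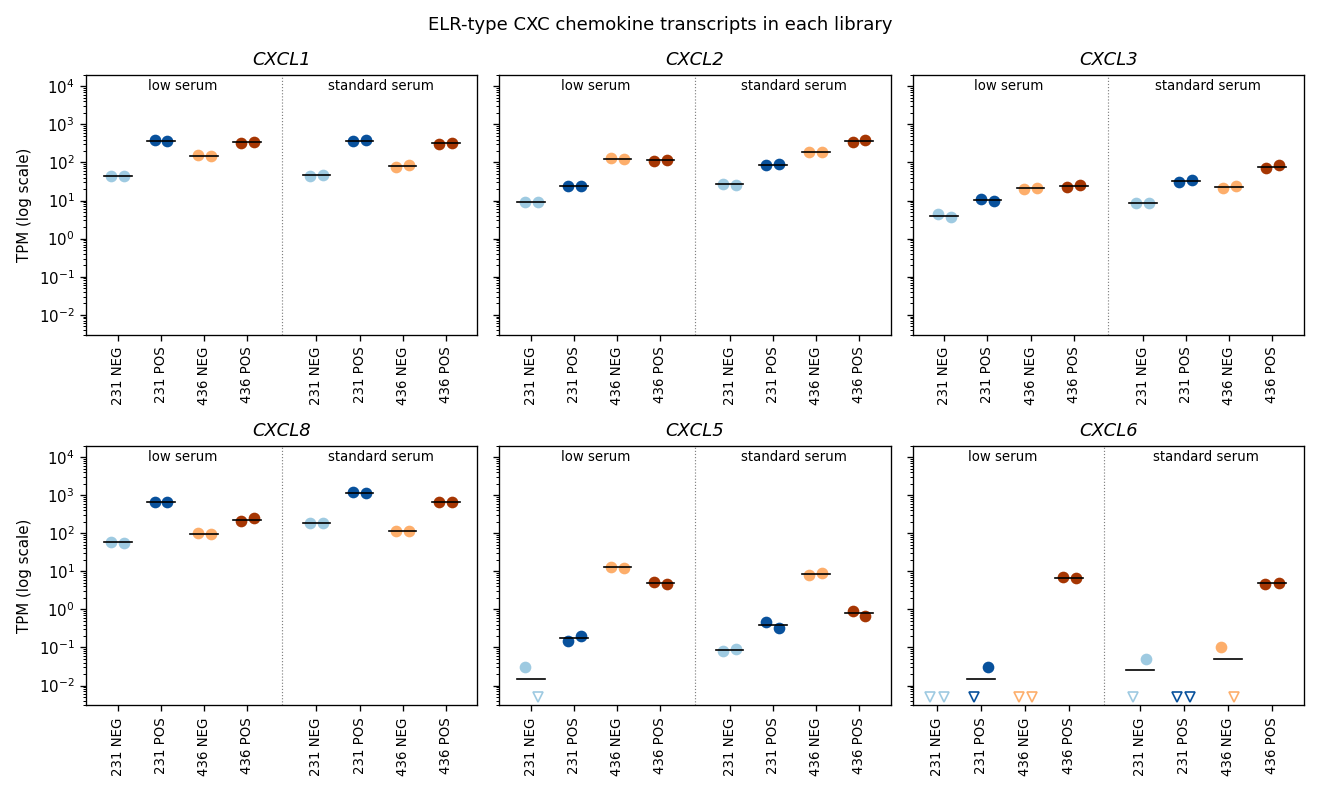
TPM of each of the 6 genes in each of the 16 libraries on a logarithmic axis, with 1 point per library, a bar at the mean of the group and open triangles for libraries listed at 0. CXCL1 and CXCL8 are higher in both POS libraries than in both NEG libraries of every pair, CXCL5 is lower in POS in MDA-MB-436, and CXCL6 is above 1 TPM in MDA-MB-436 POS alone.

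CXCL8, the neutrophil attractant and the most abundant of the 6 in MDA-MB-231, was higher in POS in all 4 pairs. In MDA-MB-231 in low serum its level was 58.1 and 56.4 TPM in the NEG libraries and 647 and 656 TPM in the POS libraries, and in standard serum 190.4 and 185 TPM in NEG and 1191 and 1121 TPM in POS. In MDA-MB-436 it was 102 and 93.1 TPM in NEG and 209.7 and 244 TPM in POS in low serum, and 116 and 114 TPM in NEG and 669.6 and 649.6 TPM in POS in standard serum. POS and NEG did not overlap in any of the 4 pairs. With 2 libraries against 2 this can also arise without a difference. Its share over all genes tested was not counted, here or for the other genes. The log2 fold change in MDA-MB-231 was 3.71 ± 0.06 (SE; adjusted p = 4.7e-27 by edgeR, a 13.1-fold difference) in low serum and 2.58 ± 0.08 (adjusted p = 1.5e-14) in standard serum. The value in MDA-MB-436 was 1.46 ± 0.06 (adjusted p = 3.1e-18) in low serum and 2.43 ± 0.08 (adjusted p = 2.9e-14) in standard serum. By mean TPM, CXCL8 ranked 46 among the 16069 tested genes in MDA-MB-231 POS in low serum and 85 among 15414 in standard serum, while it ranked 1825 and 802 in the NEG subline.

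CXCL1 (GROα), an attractant for neutrophils first known as a growth-stimulating activity of melanoma cells, was also higher in POS in all 4 pairs. The NEG libraries of MDA-MB-231 held 45.2 and 43.4 TPM and the POS libraries 385 and 356 TPM in low serum, and the levels in standard serum were 45.1 and 46.9 TPM in NEG and 365 and 382 TPM in POS. In MDA-MB-436 the levels in low serum were 156 and 145 TPM in NEG and 325 and 344 TPM in POS, and those in standard serum 77.4 and 84.9 TPM in NEG and 303 and 332 TPM in POS. In low serum the POS libraries of both lines lay between 325 and 385 TPM, and in standard serum between 303 and 382 TPM. MDA-MB-231 POS was still above MDA-MB-436 POS, by log2 values of 0.50 ± 0.05 and 0.46 ± 0.08. The likeness between serum conditions is one of TPM, of which genes that are not protein-coding took unlike parts. By mean TPM, CXCL1 ranked 120 in MDA-MB-231 POS and 185 in MDA-MB-436 POS in low serum. In standard serum it ranked 360 and 423. The log2 fold change in MDA-MB-231 was 3.26 ± 0.06 (adjusted p = 1.0e-34, edgeR) in low serum and 2.98 ± 0.09 (adjusted p = 1.4e-14) in standard serum. The value in MDA-MB-436 was 1.40 ± 0.05 (adjusted p = 4.0e-24) in low serum and 1.87 ± 0.08 (adjusted p = 2.6e-12) in standard serum. With the reads of CXCL1, CXCL2 and CXCL3 summed, the value in MDA-MB-436 in low serum was 0.84 ± 0.05 and fell below the limit on size.

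CXCL2 (GROβ), the paralog that macrophages are known to release in inflammation, was higher in MDA-MB-231 POS and was not called in MDA-MB-436. Its level in MDA-MB-231 was 9.09 and 9.35 TPM in NEG and 24.1 and 24.4 TPM in POS in low serum, and 27.8 and 26.0 TPM in NEG and 83.2 and 90.5 TPM in POS in standard serum. Its level in MDA-MB-436 was 134 and 119 TPM in NEG and 107 and 118 TPM in POS in low serum, and 184 and 186 TPM in NEG and 343 and 387 TPM in POS in standard serum. The log2 fold change in MDA-MB-231 was 1.60 ± 0.10 (adjusted p = 1.9e-17, edgeR) in low serum and 1.65 ± 0.09 (adjusted p = 1.2e-10) in standard serum. In MDA-MB-436 in low serum the fitted value was 0.08 ± 0.06 (adjusted p = 0.30), and its sign was negative on the TPM scale, where all coding genes are shifted. In standard serum the value was 0.88 ± 0.08 (adjusted p = 5.5e-08), which passed the limit on p and not that on size.

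CXCL3 (GROγ), the least abundant of the 3 GRO genes in every group, was higher in POS in 3 of the 4 pairs by the call. The NEG libraries of MDA-MB-231 held 4.3 and 3.74 TPM and the POS libraries 10.8 and 9.72 TPM in low serum, and in standard serum NEG held 8.41 and 8.78 TPM and POS 31.55 and 35.3 TPM. In MDA-MB-436 the levels were 20.4 and 21.4 TPM in NEG and 22.3 and 25.4 TPM in POS in low serum, and 21.6 and 24.0 TPM in NEG and 70.4 and 83.4 TPM in POS in standard serum. The low serum pair of MDA-MB-436 was the closest of the 4, with log2 fold change 0.43 ± 0.09 (adjusted p = 8.2e-05, edgeR), under the limit on size. The other 3 pairs gave 1.55 ± 0.12 (adjusted p = 1.4e-13) and 1.92 ± 0.12 (adjusted p = 4.9e-10) in MDA-MB-231, in low and standard serum, and 1.66 ± 0.10 (adjusted p = 3.9e-10) in MDA-MB-436 in standard serum.

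CXCL5 (ENA-78), known from epithelial cells, went in opposite directions in the 2 lines. In MDA-MB-436 it was at 13.3 and 12.4 TPM in NEG and 5.14 and 4.7 TPM in POS in low serum, and at 8.2 and 8.86 TPM in NEG and 0.9 and 0.69 TPM in POS in standard serum. Both POS libraries were below both NEG libraries, and the log2 fold change was -1.13 ± 0.13 (adjusted p = 2.0e-09, edgeR) in low serum and -3.49 ± 0.23 (adjusted p = 6.3e-10) in standard serum. Without POS replicate 2, the low serum value was -0.99 and no longer passed the limit on size. In MDA-MB-231 the gene was close to the floor, with 1 and 0 counts in NEG and 5 and 7 in POS in low serum and with 2 and 2 in NEG and 11 and 8 in POS in standard serum. The ratio of summed counts, scaled for depth, was 12.6 (95% exact interval 1.86 to 537) in low serum and 4.47 (1.49 to 18.1) in standard serum, and the intervals cover counting error only. Both were called higher in the 4-group model (adjusted p = 0.0078 and 0.015, edgeR), and both calls were lost when certain single libraries were left out.

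CXCL6 (GCP-2), the closest paralog of CXCL5, was higher in MDA-MB-436 POS than in NEG, where CXCL5 was lower in POS. In low serum its counts in MDA-MB-436 were 0 and 0 in NEG and 200 and 149 in POS (6.99 and 6.51 TPM), at least 59.4-fold higher against a floor of 3 counts per library. In standard serum the counts were 2 and 0 in NEG and 123 and 106 in POS (4.62 and 4.98 TPM), a ratio of 97.4 (95% exact interval 26.7 to 809). The gene was called in both serum conditions (adjusted p = 1.8e-18 and 2.7e-08, edgeR). In MDA-MB-231 only 2 counts were found over the 8 libraries, 1 in a POS library in low serum and 1 in a NEG library in standard serum, and no fold change is given. A count of 0 allows up to 3 counts, so that a low level in MDA-MB-231 was not detectable at this depth. In MDA-MB-436 POS the mean level of CXCL6 exceeded that of CXCL5 in both serum conditions, with 6.75 ± 0.34 against 4.92 ± 0.31 TPM in low serum and 4.8 ± 0.25 against 0.80 ± 0.15 TPM in standard serum (SD, n = 2), whereas in NEG CXCL5 was at 12.9 ± 0.65 and 8.53 ± 0.47 TPM and CXCL6 at or near 0.

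**Figure D3:**
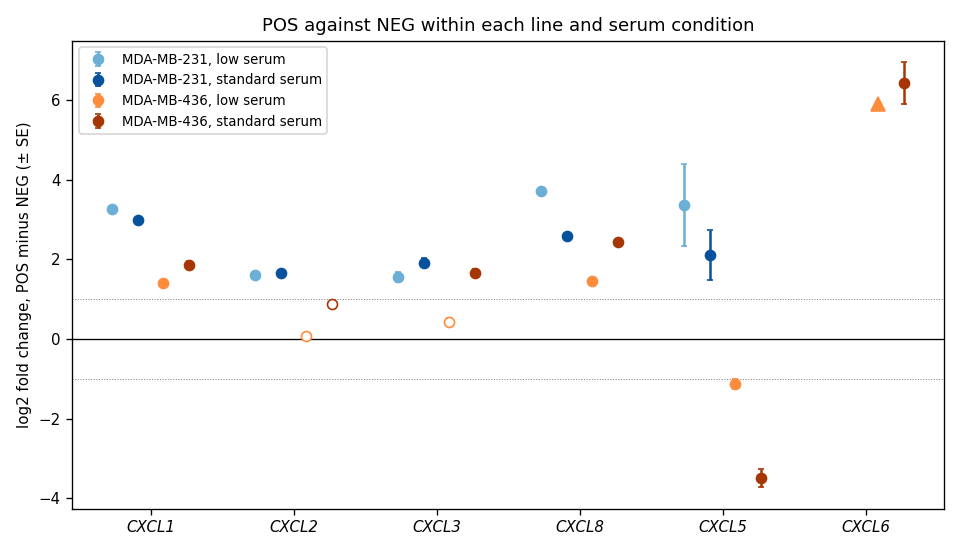
Log2 fold change of POS over NEG for each gene, line and serum condition with its standard error from the count model; filled points passed both limits of the call, open points did not, and dotted lines mark a log2 fold change of 1 in size. The triangle for CXCL6 is the lower bound against 3 counts per library, CXCL6 is left out in MDA-MB-231, and CXCL5 is the only gene with values on both sides of 0.

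The third question was whether the POS to NEG difference was itself unlike between the lines, tested as the difference of the 2 log2 fold changes in the same model. In low serum, 5 of the 6 genes were called, against 11.7% of all genes, and in each the value in MDA-MB-231 was the larger. The difference was 2.25 ± 0.09 for CXCL8 (adjusted p = 7.4e-19, edgeR), 1.87 ± 0.08 for CXCL1 (2.6e-22), 1.52 ± 0.11 for CXCL2 (1.5e-14), 1.11 ± 0.16 for CXCL3 (1.0e-07) and 4.49 ± 1.00 for CXCL5 (0.00025). In standard serum, 3 of the 6 were called, against 13.8% of all genes. CXCL1 differed by 1.12 ± 0.11 (adjusted p = 4.1e-07, edgeR) and CXCL5 by 5.60 ± 0.65 (1.9e-06), and the call of CXCL6 rests on MDA-MB-231 libraries with 0 or 1 counts, so no size is given. CXCL2 differed by 0.77 ± 0.12 (adjusted p = 5.0e-05), below the limit on size, and CXCL3 by 0.26 ± 0.16 (adjusted p = 0.19) and CXCL8 by 0.16 ± 0.10 (adjusted p = 0.24), for which no difference was shown. The CXCL5 values of MDA-MB-231 rest on the few counts given above.

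The fourth question was how the lines differed from each other in the same reporter state. Among NEG sublines, 4 of 6 genes were called lower in MDA-MB-231 in low serum, against 21.4% of all genes, and 3 of 6 in standard serum, against 25.4%. CXCL2 and CXCL3 were lower in MDA-MB-231 NEG by log2 values of -3.38 ± 0.08 and -1.98 ± 0.12 in low serum, and in standard serum by -2.61 ± 0.09 and -1.24 ± 0.12. CXCL1 was called in low serum (-1.36 ± 0.06) and not in standard serum (-0.65 ± 0.09). CXCL5 was the remaining call of both serum conditions and was close to 0 in MDA-MB-231 NEG. CXCL8 differed by -0.37 ± 0.06 in low serum and by 0.88 ± 0.07 in standard serum, values of opposite sign that did not pass the limit on size.

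Among POS sublines, 3 of 6 were called lower in MDA-MB-231 in low serum (CXCL2, CXCL5 and CXCL6), against 20.8% of all genes, and 1 of 6 (CXCL8) was called higher, against 18.1%. In standard serum, 2 of 6 (CXCL2 and CXCL6) were called lower, against 24.6% of all genes, and CXCL8 again was called higher, against 20.8%. The difference of CXCL8 was 1.89 ± 0.06 (adjusted p = 2.6e-22, edgeR) in low serum and 1.03 ± 0.07 (adjusted p = 1.9e-10) in standard serum. The latter was 0.82 with library totals in place of TMM factors, below the limit on size. The difference of CXCL2 was -1.85 ± 0.07 in low serum and -1.85 ± 0.08 in standard serum. CXCL1 differed by 0.50 ± 0.05 and 0.46 ± 0.08, neither past the limit on size.

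Ranked by mean TPM, the 4 groups of CXCL1 stood in 1 order in both serum conditions, MDA-MB-231 POS, MDA-MB-436 POS, MDA-MB-436 NEG and MDA-MB-231 NEG, and each group differed from the next by an adjusted p under the limit (edgeR, highest 2.2e-05). CXCL8 led in MDA-MB-231 POS followed by MDA-MB-436 POS in both, and the 2 NEG groups exchanged places between serum conditions, MDA-MB-436 above MDA-MB-231 in low serum and below it in standard serum. CXCL2 was higher in both MDA-MB-436 groups than in both MDA-MB-231 groups. Its 2 MDA-MB-436 groups in low serum were not shown to differ (adjusted p = 0.30). For CXCL3 the 2 MDA-MB-436 groups led in low serum, while in standard serum MDA-MB-231 POS stood above MDA-MB-436 NEG, and all neighbours differed (highest adjusted p = 0.00014). CXCL5 was highest in MDA-MB-436 NEG, and in standard serum MDA-MB-436 POS and MDA-MB-231 POS, at 0.80 and 0.4 TPM, were not shown to differ (adjusted p = 0.065). CXCL6 was highest in MDA-MB-436 POS, and the other 3 groups were at the floor.

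The profiles across the 8 libraries of a serum condition fell along these orders. Pearson's r of log2 CPM was 0.91 in low serum and 0.90 in standard serum between CXCL1 and CXCL8, and 0.95 and 0.87 between CXCL2 and CXCL3. CXCL2 and CXCL8 gave 0.13 and 0.15. Other pairs cut across these, with 0.97 and 0.63 for CXCL2 and CXCL5 and 0.74 and 0.86 for CXCL1 and CXCL3. CXCL3 and CXCL5 gave 0.86 and 0.24, and the remaining pairs are not listed here. These are descriptions over 8 libraries of 4 sublines, which share the same line and sort, and carry no p. Among 12492 other coding genes with at least 1 CPM on average, those with the highest mean r over the 2 serum conditions were RARB, SLIT2 and ZBTB33 for CXCL1 (0.98, 0.97 and 0.96), NUAK2, LMBR1 and BTG3 for CXCL2 (all 0.99) and ETS2, CDH13 and MB21D2 for CXCL3 (0.97, 0.96 and 0.96). For CXCL5 they were IFIH1, FERMT3 and MAGED1 (0.99 each), for CXCL6 GDA, MCF2 and MCM7 (0.99 each) and for CXCL8 FBN1, INHBA and BAZ1A (0.96, 0.95 and 0.95). The lists of the 6 genes had no gene in common.

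The receptors were all but absent from these cells. CXCR1 and CXCR2, through which the ELR chemokines act, had at most 2 counts in any of the 16 libraries and failed the filter on low counts. ACKR1, the decoy receptor of red cells and venules, had at most 4. Markers of leukocytes, the other possible source of these chemokines in a mixed sample, summed to 7.5 to 22.5 TPM over 10 genes. In MDA-MB-231 the sum was higher in NEG, at 19.1 to 22.5 TPM against 13.9 to 16.3 TPM in POS in low serum and at 17.0 to 17.3 against 11.2 to 11.4 TPM in standard serum. In MDA-MB-436 it was 11.2 to 12.2 TPM in NEG and 14.6 to 16.5 TPM in POS in low serum, and 13.6 to 14.5 and 7.5 to 10.3 TPM in standard serum. The sums of MDA-MB-231 follow LYZ, which encodes lysozyme and was lower in POS in standard serum (-1.53 ± 0.23), with -0.97 ± 0.15 in low serum. PTPRC, the pan-leukocyte gene that encodes CD45, was called higher in MDA-MB-231 POS in low serum (1.14 ± 0.19, adjusted p = 3.6e-06, edgeR), at 0.53 and 0.60 TPM in NEG and 1.12 and 1.03 TPM in POS, with 0.32 ± 0.15 in standard serum. In MDA-MB-436 POS, ITGAM was called lower in both serum conditions (-1.22 ± 0.19 and -1.48 ± 0.21) and CSF3R, with at most 9 counts in a library, higher in low serum. Depending on the group, 3 to 6 of the 10 markers were at the floor, among them the T cell gene CD3E in every group.

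**Figure D4:**
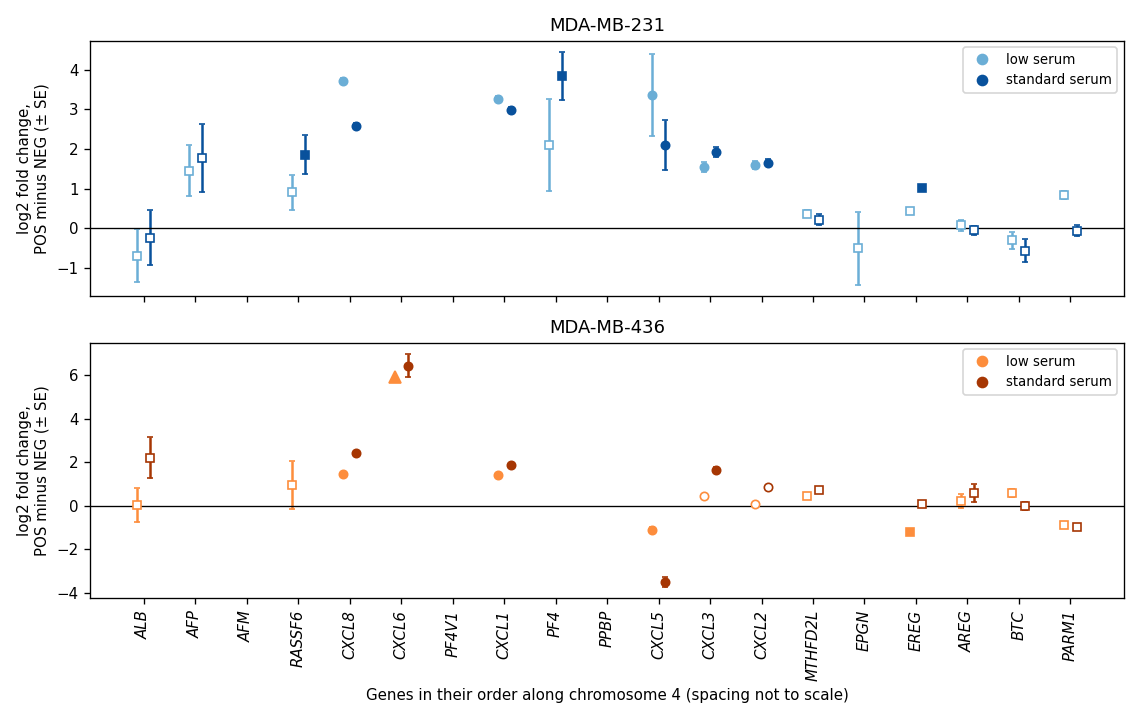
Log2 fold change of POS over NEG, with its standard error, of the 6 chemokine genes (circles) and their neighbours (squares) in order along chromosome 4, for MDA-MB-231 (top) and MDA-MB-436 (bottom); filled symbols were called, the triangle is a lower bound and genes without a symbol were too low. CXCL5 is the only gene between CXCL8 and CXCL2 that is below 0 in MDA-MB-436.

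The differences did not extend over the neighbourhood as a block. Of 10 genes that flank the cluster, 9 were tested in low serum, and 8 were in standard serum. In MDA-MB-231, 0 were called in low serum (5 had an unadjusted p under 0.05 in edgeR, and DESeq2 also called 0), and 2 were called higher in standard serum, RASSF6 (1.86 ± 0.50), at under 1 TPM, and EREG, which encodes the EGF receptor ligand epiregulin (1.02 ± 0.08). In MDA-MB-436, EREG was called lower in low serum (-1.22 ± 0.06), and 0 were called in standard serum (3 had an unadjusted p under 0.05, and DESeq2 called 0). MTHFD2L, a mitochondrial folate enzyme gene that begins 15.0 kb beyond CXCL2, had values of 0.37 ± 0.09 and 0.22 ± 0.13 in MDA-MB-231 and 0.43 ± 0.09 and 0.71 ± 0.13 in MDA-MB-436, none past the limit on size. Inside the cluster PF4, the platelet chemokine gene without an ELR motif, was called in MDA-MB-231 in standard serum (3.84 ± 0.60), at 0.17 and 0.58 TPM in NEG and 4.78 and 6.46 TPM in POS, and was listed at 0 in all 8 MDA-MB-436 libraries. The opposite differences of CXCL5 and CXCL6 in MDA-MB-436 thus lay within a cluster in which CXCL1 lies between them.

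Of 11 other CXC chemokines, 6 were tested in each serum condition. In MDA-MB-231 POS, 2 were called higher in low serum and 3 in standard serum, and none lower. In MDA-MB-436 POS, 1 was called higher and 3 lower in low serum, and 0 higher and 3 lower in standard serum. Over all genes tested, 3.5% and 4.96% were called higher in MDA-MB-231 POS (low and standard serum). In MDA-MB-436 POS 6.52% and 6.47% were called higher and 4.03% and 6.06% lower. These shares stand beside the counts of every list of genes here. The median log2 fold change of the 6 tested CXC chemokines was 0.99 and 1.13 in MDA-MB-231 and -0.68 and -0.83 in MDA-MB-436 (low and standard serum). Medians over all genes lay between -0.01 and 0.01. CXCL10 and CXCL11, ligands of CXCR3 that lack the ELR motif, were among the calls in all 4 pairs, with the directions of CXCL5. CXCL10 had values of 1.82 ± 0.26 and 2.80 ± 0.38 in MDA-MB-231 and of -2.13 ± 0.11 and -3.91 ± 0.24 in MDA-MB-436. CXCL12, the ligand of CXCR4, was called lower in MDA-MB-436 POS in both serum conditions (-1.35 ± 0.21 and -1.58 ± 0.17).

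A list of 13 genes held cytokines known to induce ELR chemokines, their receptors, and the interleukin 1 inhibitors IL1RN and IL1R2. Of these 13, 12 passed the filter in low serum, and 11 did in standard serum. In MDA-MB-231 POS, 3 were called higher in each serum condition, against 3.5% and 4.96% of all genes, and 1 was called lower in low serum. In MDA-MB-436 POS 1 and 2 were called higher, against 6.52% and 6.47%. IL1B, which encodes interleukin 1β, was at 1.87 and 2.98 TPM in MDA-MB-231 NEG and 37.3 and 32.4 TPM in POS in low serum, and at 8.62 and 9.51 TPM and 169 and 149 TPM in standard serum. Its log2 fold change was 4.05 ± 0.10 and 4.10 ± 0.10 in MDA-MB-231, and 0.21 ± 0.06 (not called) and 1.28 ± 0.08 (called) in MDA-MB-436. IL1A followed with 2.597 ± 0.10 and 3.50 ± 0.09 in MDA-MB-231 and with -0.44 ± 0.06 and 0.97 ± 0.07, neither called, in MDA-MB-436. In MDA-MB-436 the 2 interleukins, CXCL1, CXCL2, CXCL3 and CXCL8 had the larger value in standard serum, and CXCL5 had the lower. Receptor genes of the list went both ways there. IL1R1 had 0.03 ± 0.08 in low serum and -0.99 ± 0.11 in standard serum, and TNFRSF1B had 1.02 ± 0.17 and 1.33 ± 0.19. The serum conditions were not compared by a test, and a link between these genes was not tested. The single lower call, the interleukin 1 antagonist gene IL1RN, had at most 8 counts in any MDA-MB-231 library.

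**Figure D5:**
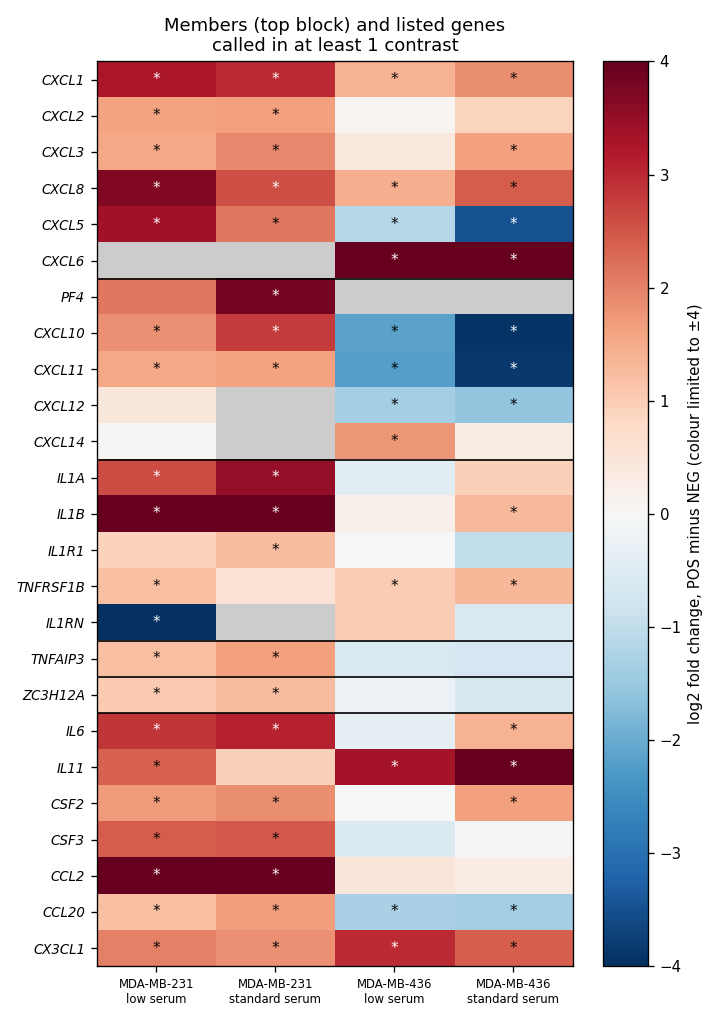
Log2 fold change of POS over NEG in the 4 pairs (columns) for the 6 chemokine genes (top block) and for the 19 genes of 5 lists that were called in at least 1 pair, where stars mark calls and grey marks pairs at the floor of counts. Between lines from top to bottom stand other CXC chemokines, then inducing cytokines with their receptors and the interleukin 1 inhibitors. NF-κB subunits and inhibitors, mRNA decay factors and other secreted NF-κB targets follow, and the colour is limited to 4 in size.

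Of 10 other secreted products known as NF-κB targets, 9 were tested. In MDA-MB-231 POS 7 were called higher in low serum, against 3.5% of all genes, and 6 in standard serum, against 4.96%. The medians were 2.03 and 1.84. In MDA-MB-436 POS 2 were called higher and 1 lower in low serum, against 6.52% and 4.03% of all genes. In standard serum 4 were called higher and 1 lower there, against 6.47% and 6.06%. The medians in MDA-MB-436 were -0.20 and 0.28. CCL2, a monocyte attractant, had values of 4.78 ± 0.20 and 4.47 ± 0.32 in MDA-MB-231. It lay between 0.19 and 1.02 TPM in the NEG libraries and between 6.74 and 20.9 TPM in the POS libraries. CX3CL1, the membrane-bound chemokine fractalkine, was called higher in all 4 pairs, and CCL20, an attractant of CCR6-positive lymphocytes, was called higher in MDA-MB-231 POS and lower in MDA-MB-436 POS in both serum conditions. Among the 12 NF-κB subunits and inhibitors, all tested, 1 was called in MDA-MB-231 in each serum condition. In MDA-MB-436 edgeR and DESeq2 each called 0 in both, with 11 and 8 genes at an unadjusted p under 0.05 in edgeR. The gene called was TNFAIP3, which encodes the feedback inhibitor A20, with 1.21 ± 0.06 in low serum and 1.64 ± 0.08 in standard serum. It was not called in MDA-MB-436, at -0.60 ± 0.05 and -0.68 ± 0.07.

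The 11 AP-1 and C/EBP factors, all tested, had 0 calls in edgeR in both MDA-MB-231 and MDA-MB-436 in low serum and in MDA-MB-436 in standard serum (6, 6 and 4 had an unadjusted p under 0.05, and DESeq2 called 0, 0 and 1), and 2 lower calls in MDA-MB-231 POS in standard serum, FOS (-1.94 ± 0.11) and FOSB (-1.66 ± 0.16), both immediate-early genes. Of 8 factors that act on the decay or stability of AU-rich chemokine mRNA, all tested, 1 was called in MDA-MB-231 in each serum condition, ZC3H12A, which encodes the RNase Regnase-1 (1.04 ± 0.06 and 1.24 ± 0.09 higher in POS). In MDA-MB-436 edgeR and DESeq2 each called 0, with 6 and 5 at an unadjusted p under 0.05 in edgeR. Of 10 Wnt feedback targets, all tested, 1 was called higher in MDA-MB-231 POS in each serum condition, against 3.5% and 4.96% of all genes. In MDA-MB-436 POS 1 was called higher and 1 lower in low serum, against 6.52% and 4.03%. In standard serum 1 was called higher and 2 lower there, against 6.47% and 6.06%. Such small counts were not tested against these shares. The Wnt targets called higher in MDA-MB-231 were LGR5 (1.40 ± 0.22) in low serum and RNF43 (1.11 ± 0.19) in standard serum. In MDA-MB-436 the higher call was DKK1 in both serum conditions (2.11 ± 0.06 and 1.78 ± 0.08). Lower there were NKD1 (-1.21 ± 0.22) in low serum and RNF43 (-2.40 ± 0.70, at most 13 counts in a library) and SP5 (-1.13 ± 0.24) in standard serum. AXIN2, a widely used Wnt target, had values of 0.65 ± 0.11 and 0.33 ± 0.19 in MDA-MB-231 and of 0.36 ± 0.18 and -0.12 ± 0.22 in MDA-MB-436, none called. Of the 10 mesenchymal and line identity markers, all tested, 1 was called lower in MDA-MB-231 POS in low serum and 2 lower and 1 higher in standard serum, and in MDA-MB-436 POS 1 was called higher and 1 lower in low serum and 0 in standard serum (3 at an unadjusted p under 0.05, and 0 in DESeq2). VIM, which encodes vimentin, was called lower in MDA-MB-231 POS in both serum conditions (-1.05 ± 0.05 and -1.03 ± 0.08) and had values of 0.16 ± 0.05 and 0.49 ± 0.08 in MDA-MB-436, below the limit on size. FN1, which encodes fibronectin, was called lower in MDA-MB-231 POS in standard serum (-2.14 ± 0.10) and higher in MDA-MB-436 POS in low serum (1.37 ± 0.05). Among these markers, the higher call in MDA-MB-231 was ESR1, the estrogen receptor gene, at 0.16 and 0.19 TPM in POS and at 0 in NEG. The lower call in MDA-MB-436 was PGR. The part of any of these genes in the chemokine levels was not tested.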

How the data were processed

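Bulk RNA-Seq of 16 libraries was analysed. Per the labels and methods, the authors aligned reads to hg19 with STAR (2.6.1a in the processing notes), took gene counts on Gencode annotation and deposited raw counts and TPM, and how TPM was computed is not given in the sources used here. All columns were matched to a sample. Symbols and biotypes came from Gencode lifted to GRCh37, and a gene was tested if it was protein-coding and had 10 counts or more over 8 libraries. Counts were scaled with TMM factors and fitted with edgeR 4.0.16 (robust quasi-likelihood test, Benjamini-Hochberg adjustment), with 1 model of 4 groups per serum condition, and SE is the log2 fold change over the root of F. DESeq2 1.42.0 and limma 3.58.1 served as alternatives (R 4.3.3), with Python 3.11.15 and Biopython 1.88 for tables and sequences. On simulated POS against NEG counts with 200 changed genes, 99.5% of these were recovered in each serum condition. The changed genes all had the same size of difference, above the limit of the call, and were drawn from genes well above the filter on low counts. Their spread was set rather than taken from these libraries. Differences near the limit on size, and changed genes at a few counts per library, were not simulated. Depth was 27918418 to 46044073 counts, and intervals and floors (3 counts) cover counting error only. A p-value sets a difference against the spread between cultures of the same subline, estimated over the 4 groups of the model. With 1 subline in each arm, reporter state cannot be told apart from other differences between sublines. All 6 genes are described in every library, listed genes by counts of calls, and the most alike genes by Pearson's r of log2 CPM (3 per gene). The genes and lists were chosen with earlier results of these data known. The neighbouring gene AREG has a duplicate in the annotation and is not described. Sequences came from RefSeq (all 6 genes matched), and protein sequences were not analysed here.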

Additional observations from a re-analysis of the deposited data

Results flagged for a closer look

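For 5 genes in low serum and 2 in standard serum, the log2 fold change of POS over NEG differed between the lines in the test of the difference itself (MDA-MB-231 minus MDA-MB-436, edgeR). In low serum the difference was 1.87 for CXCL1, 1.52 for CXCL2, 1.11 for CXCL3, 4.49 for CXCL5 and 2.25 for CXCL8. In standard serum it was 1.12 for CXCL1 and 5.60 for CXCL5. For CXCL5 the 2 lines differed in opposite directions, and its level in MDA-MB-231 rests on 0 to 11 counts per library. For CXCL1 and CXCL8 POS was higher than NEG in both lines. No group had enough libraries for a test of single outlying samples.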

How the results depend on the processing

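For 54 combinations of a gene and a comparison, 1154 alternative values were computed, of which 1106 kept direction and call, 22 lost the call, 21 gained it and 5 changed sign, and 33 combinations kept both throughout. CXCL2 in MDA-MB-436 in low serum changed sign on log2(TPM + 1) and log2(TPM + 0.1), to -0.17 and -0.17. With CXCL1, CXCL2 and CXCL3 summed as 1 gene, the POS difference between lines was 0.0873 in low serum, against negative values of CXCL2 and CXCL3, and it was -0.49 in standard serum, against a positive value of CXCL1. In that setting CXCL1 in MDA-MB-436 in low serum lost its call (0.84), and no count of called genes exists. The number of the 6 genes called moved by over 1.5 times in 3 cases, to 1 for the difference between lines in standard serum in a test against 2-fold, and to 5 for NEG and 5 for POS sublines in standard serum with no limit on size. Leaving out single libraries moved no count that far. CXCL5 in MDA-MB-231 lost its call in low serum without NEG replicate 2 (adjusted p = 0.089, edgeR) or POS replicate 2 (0.063), and in standard serum without NEG replicate 1 (0.088), NEG replicate 2 (0.056) or POS replicate 1 (0.089). CXCL8 between POS sublines in standard serum lost its call without MDA-MB-231 replicate 1 (0.98) or MDA-MB-436 replicate 2 (0.99), and CXCL3 there gained one without MDA-MB-231 replicate 2 (-1.05) or MDA-MB-436 replicate 1 (-1.09). The call of CXCL5 in MDA-MB-436 in low serum was lost in the test against 2-fold (adjusted p = 0.69). The causes were not tested. The difference between lines cannot be computed with only the groups compared. Of 48 shares, 44 moved by over 1 SD when counts replaced TPM, with CXCL8 at 73.3% in MDA-MB-231 POS in low serum and CXCL8 in place of CXCL1 as the leading gene of both MDA-MB-436 sublines in low serum. Over all genes in low serum, 59.4% of the calls in MDA-MB-231 and 61.8% in MDA-MB-436 were higher in POS, against 42.7% and 43.8% on log2(TPM + 0.1).

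Counts of calls over all genes moved with the call itself. POS against NEG gave 948 calls in MDA-MB-231 and 1694 in MDA-MB-436 in low serum, and in standard serum 1185 and 1932, against 302, 793, 522 and 941 on log2(TPM + 1), 6250, 8348, 5084 and 7631 without a limit on size, and 352, 922, 521 and 975 in the test against 2-fold. The deviations of same-numbered replicates correlated with r from -0.13 to 0.03 in low serum, with 0 of 6 pairs of groups over 0.1, and from -0.03 to 0.21 in standard serum, with 4 of 6 over 0.1, both POS and NEG pairs of a line among them. The labels do not say that a number marks a shared culture or day, so the libraries were not treated as paired. With the replicate number as a block, the number of the 6 genes called was 5 and 5 in MDA-MB-231, 4 and 5 in MDA-MB-436 and 5 and 2 for the difference between lines (low and standard serum, against 5 and 3 without it, the call of CXCL6 being lost), and calls over all genes were 926 and 1170 in MDA-MB-231 and 1667 and 1938 in MDA-MB-436. Levels of 3 counts or fewer per library limit CXCL6 and CXCL5 in MDA-MB-231.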
